A study of Rattus norvegicus with 6 samples.

Results

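Aminoacyl-tRNA synthetases were followed in cultured rat nucleus pulposus cells, which fill the soft centre of the intervertebral disc, after knockdown of the circadian transcription factor Bmal1. The members were the genes of the deposited table whose description holds the words tRNA synthetase and whose symbol has the form used for these enzymes (a letter for the amino acid followed by ars, or Eprs). This took 39 of 32623 genes: 21 cytosolic enzymes or subunits, 17 mitochondrial enzymes, and Aarsd1, which encodes an editing protein related to the alanine enzyme. The rule used no measured value.

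A synthetase joins an amino acid to its transfer RNA, the step in which the genetic code is read into chemistry. Cells keep separate sets of enzymes for the cytosol and for mitochondria, most of them encoded by different nuclear genes. The glycine and lysine enzymes are made for both places from a single gene each, Gars and Kars, which are counted here as cytosolic, and mitochondria have no glutamine enzyme of their own because they make that charged transfer RNA from glutamate. In animals, several cytosolic enzymes sit in a multisynthetase complex held together by the scaffold proteins AIMP1, AIMP2 and AIMP3, the last encoded by Eef1e1. Many cytosolic synthetase genes are known targets of ATF4, the transcription factor of the amino acid and integrated stress responses.

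Cells of lumbar discs from male Sprague-Dawley rats aged 4 weeks were used at passages 3 to 5. Lentivirus delivered either a Bmal1 hairpin RNA (group shBmal1) or its negative control (group shNC) for 72 hours, with 3 libraries per group, so that both groups carried a virus. Neither the number of hairpin sequences nor the origin of replicate libraries (distinct cultures, rats or one pool) is stated, and p-values here reflect the spread between libraries alone, which may be technical.

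The libraries held 44043803 to 49783710 counts in shNC and 8773762 to 11679587 in shBmal1, a mean depth 4.44-fold higher in shNC. Mitochondrial rRNA took 0.0330 to 0.0602% of counts in shNC and 0.722 to 1.31% in shBmal1. The targeted gene, listed as Arntl, fell from 29.6 ± 2.14 to 2.82 ± 1.23 CPM (counts scaled by TMM to a common library size, here called CPM; SD, n = 3; adjusted p = 1.17e-05, edgeR), and 9.55% of it was left. Of 11 nucleus pulposus markers, 9 were measured well enough to be tested. Of these 4 fell (Acan, Col2a1, Krt8 and Pax1), 2 rose (Foxf1 and Ca3) and 3 were not called (Krt18, Krt19 and Cd24), and the notochord gene Tbxt had no count in any library. The summed level of the list was 1333 to 1399 CPM in shNC and 230.2 to 270.1 in shBmal1. Most of the sum in shNC was Acan and Pax1, which fell from 648 to 32.8 and from 527 to 84.9 CPM. Markers of 3 other cell types stayed low. Their summed level ran from 27.7 to 43.0 CPM over all libraries for macrophages, nearly all of it Cd14. It stayed at or below 0.404 CPM in shNC and 3.15 CPM in shBmal1 for endothelial cells, and at or below 0.594 CPM for red blood cells. Of the genes tested in these lists, Cd14 was called lower (log2 fold change −0.40, edgeR). The macrophage gene Cd68 (2.81, from 0.407 to 2.89 CPM) and the endothelial gene Vwf (4.06, from 0.133 to 2.30 CPM) were called higher. The parts of depth, rRNA content and these markers in the results below were not tested. Fewer cells of a kind and less RNA per cell cannot be told apart in bulk RNA.

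In the control cells the cytosolic enzymes were far more abundant than the mitochondrial ones. On the FPKM scale, which is per length, the median over the 21 cytosolic genes came to 36.5, 37.8 and 36.8 in the 3 shNC libraries, against 3.69, 3.90 and 3.53 over the 17 mitochondrial genes. Sars1, the serine enzyme, was highest at 143 ± 3.86 FPKM (SD, n = 3), followed by the alanine enzyme Aars at 116 ± 3.01 and by Eprs at 111 ± 2.08. The lowest Aars library, at 112.1 FPKM, was level with the highest Eprs library, at 112.0, so that these neighbours were barely separate. Most other cytosolic genes lay between 18.2 (Farsb) and 93.4 FPKM (Gars). The exception was Tars3, a second cytosolic threonine enzyme, at 1.99 ± 0.48 FPKM. Among mitochondrial enzymes Iars2 (12.8 ± 0.35) and Tars2 (11.2 ± 0.77) led, and Mars2 was lowest at 0.986 ± 0.134 FPKM.

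**Figure D1:**
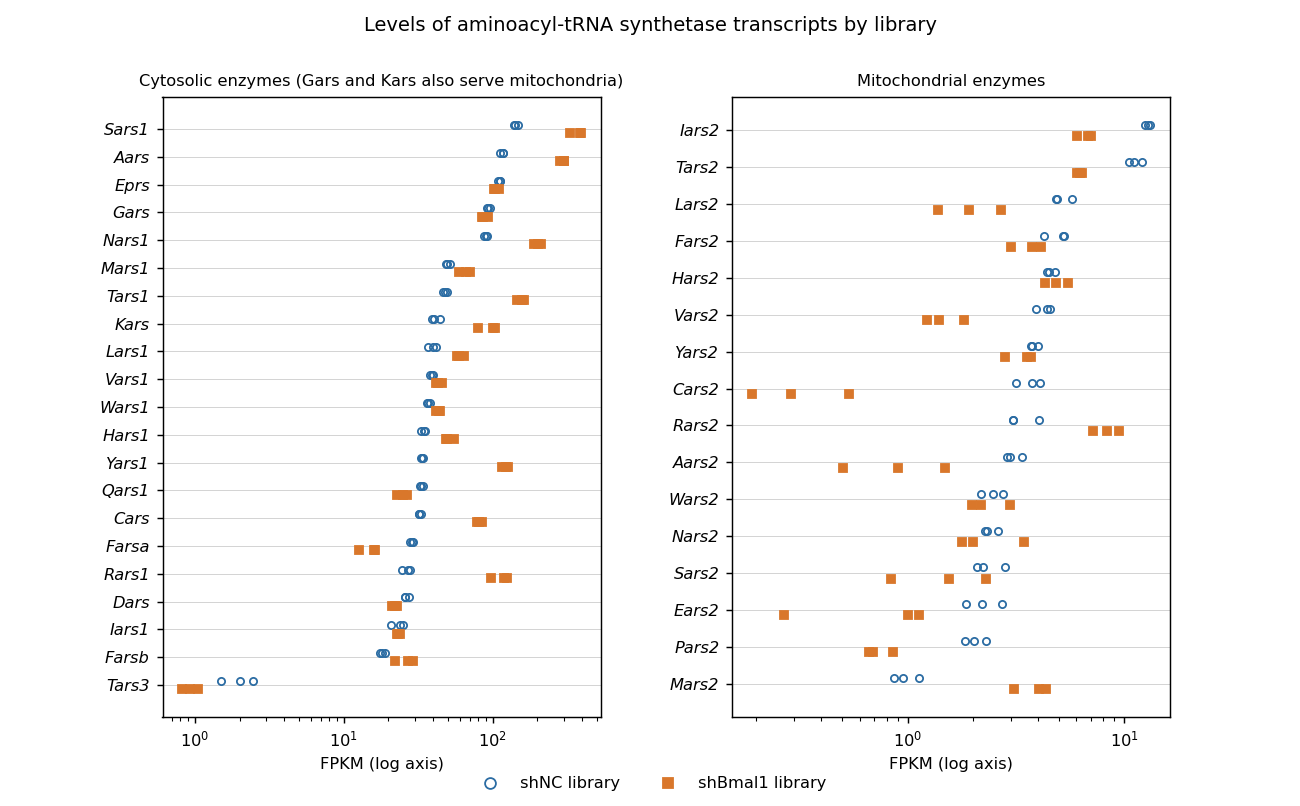
FPKM (log axis) of the 21 cytosolic (left) and 16 of the 17 mitochondrial (right) synthetase genes in every library; open circles are shNC and filled squares shBmal1 libraries, and genes are ordered by their shNC mean. Squares lie to the right for Sars1, Aars, Tars1, Yars1 and Rars1 and to the left for most mitochondrial genes. They lie to the right for Mars2 and Rars2 and overlap the circles for Hars2, Nars2, Wars2, Yars2 and Sars2.

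The 2 sets of enzymes moved apart in shBmal1. Among the 21 cytosolic genes 12 rose and 6 fell, while 3 missed the threshold. Among the 17 mitochondrial genes 2 rose and 10 fell, while 5 missed it (edgeR's quasi-likelihood test, Benjamini-Hochberg adjusted p under 0.05). Over all 14342 genes tested, 36.0% were higher and 35.3% lower, 71.3% in all. The share of the 39 members called was 79.5%, which is near that background and is no result in itself. The median log2 fold change was 0.41 for cytosolic genes, −0.96 for mitochondrial genes and −0.01 for all genes. By class, the build of the catalytic domain, the medians were 0.28 for 9 cytosolic class I enzymes, 0.45 for 11 cytosolic class II genes, −1.06 for 9 mitochondrial class I enzymes and −0.83 for 8 of class II. Eprs joins both classes and is in neither. All 39 members were tested, and each had more than the cutoff of 0.359 CPM in every library of both groups.

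The balance of calls in the cytosolic set and the size of its median depended on the scaling, while the gap between the sets changed little. With FPKM rescaled to TPM, which moves the median of all genes by −0.33 on the log2(TPM + 1) scale, 8 cytosolic genes were higher and 9 lower, and 2 mitochondrial genes were higher and 14 lower (limma). On that scale 28.3% of all genes were higher and 46.6% lower, 74.9% in all. The cytosolic median then came to 0.03 and the mitochondrial median to −1.26. The difference between the medians was 1.37 in the count test and 1.29 to 1.47 over all other settings. A factor applied to a whole library shifts both medians alike. Settings that differ mainly in such a factor could therefore hardly change this difference, and its steadiness under them is no result. Mitochondrial genes are also the lower ones. Among the 6197 tested genes within their span of 3.22 to 32.4 mean CPM, 40.6% were lower, 29.6% were higher, and the median log2 fold change was −0.23. Within the cytosolic span of 3.00 to 757 CPM the shares were 41.3% lower and 35.3% higher, with a median of −0.13. Leaving out shNC replicate 2 took the number of falling cytosolic genes from 6 to 3, and leaving out shNC replicate 3 took it to 4.

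Summed FPKM of the cytosolic set came to 1046, 1072 and 1079 for the shNC libraries and 1892, 2065 and 2054 for shBmal1. The mitochondrial sum came to 73.2, 74.0 and 72.5 for shNC and to 50.9, 51.0 and 50.8 for shBmal1. Neither sum overlapped between the groups. The size of each change depended on the scale. The mean cytosolic sum rose 1.88-fold in FPKM and 1.65-fold in CPM. The mean mitochondrial sum in shBmal1 was 0.695 of that in shNC in FPKM and 0.599 in CPM. Sums with TPM are not given here. The ratio of the sums, which does not depend on library scaling, came to 14.3, 14.5 and 14.9 for shNC and to 37.2, 40.5 and 40.5 for shBmal1, a 2.70-fold rise of the mean. The counts behind the mitochondrial sum were 8755 to 10038 per shNC library and only 1171 to 1552 per shBmal1 library.

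**Figure D2:**
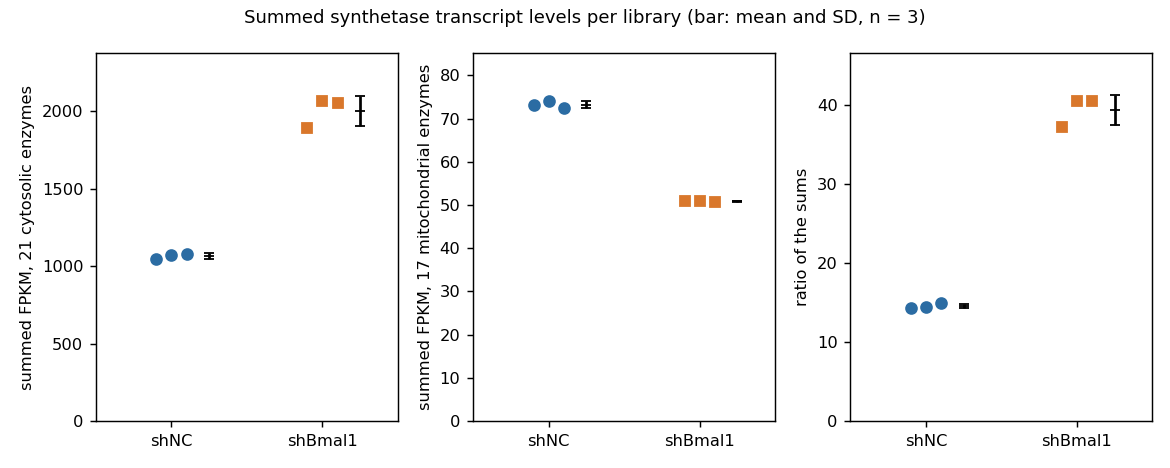
Summed FPKM of the 21 cytosolic genes (left), of the 17 mitochondrial genes (middle) and the ratio of the sums (right) in each library, with mean and SD (n = 3). The cytosolic sum lies at 1892 or above in every shBmal1 library and at 1079 or below in every shNC library, while the mitochondrial sum is lower in shBmal1.

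The cytosolic enzymes that rose most were those for arginine, tyrosine, threonine, serine, alanine, cysteine, lysine and asparagine, all at least 2-fold. Rars1, the arginine enzyme, had 24.6, 27.1 and 28.0 FPKM in shNC and 97.6, 119.5 and 124 in shBmal1. Every shBmal1 library was more than 90 FPKM, far from the shNC range. The log2 fold change was 1.99 ± 0.10 (SE; adjusted p = 1.03e-06, edgeR), and Rars1 went from rank 17 to rank 6 among the 39 genes by FPKM. Yars1, the tyrosine enzyme, had 33.3, 33.6 and 34.1 FPKM in shNC and 116, 123 and 127 in shBmal1 (1.75 ± 0.06; adjusted p = 1.48e-07, edgeR). Tars1, the main threonine enzyme, had 46.5, 49.6 and 47.9 FPKM in shNC and 145, 161 and 157 in shBmal1 (1.58 ± 0.06; adjusted p = 3.38e-07, edgeR). For both genes the shNC libraries lay close together and the groups were well apart.

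Sars1 and Aars stayed the most abundant synthetase transcripts in both groups. Sars1 had 142, 139 and 147 FPKM in shNC and 332, 388 and 389.9 in shBmal1, a log2 fold change of 1.26 ± 0.07. Aars had 112, 117 and 118 FPKM in shNC and 285, 300.5 and 302 in shBmal1, a log2 fold change of 1.25 ± 0.05. Cars, the cysteine enzyme, rose from 32.3 ± 0.59 to 81.5 ± 3.70 FPKM (log2 fold change 1.22) and Nars1, the asparagine enzyme, from 89.9 ± 2.29 to 201 ± 9.82 FPKM (1.05). Kars rose from 41.3 ± 2.64 to 95.1 ± 13.2 FPKM (1.09). These 8 genes stayed called and higher under every alternative run.

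Smaller increases were seen for Lars1 (leucine, log2 fold change 0.51), Hars1 (histidine, 0.45), Farsb (0.41) and Mars1 (methionine, 0.28), and these depended on scaling. With TPM + 1 they came to 0.13, 0.08, 0.03 and −0.09, and none passed (adjusted p = 0.178, 0.368, 0.847 and 0.399, limma). Mars1 also lost its call without shBmal1 replicate 2 (0.19, adjusted p = 0.0664, edgeR) and without the filter on low counts (0.21, adjusted p = 0.0638). Its 3′ end overlaps that of Ddit3 by 72 bases on the opposite strand in the table, and Ddit3 rose by 2.04 on the log2 scale. Reads of the overlap could belong to either gene if strand was ignored in counting, which the sources used here do not state. Wars1 (tryptophan, 0.11), Vars1 (valine, 0.05) and Iars1 (isoleucine, −0.11) did not pass. Their calls depended on the setting. With TPM + 1 all 3 were called lower (−0.26, −0.32 and −0.47; limma), while Wars1 was called higher with DESeq2 (0.17, adjusted p = 0.005), with thinned counts (0.18) and with the length trend removed (0.21).

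The cytosolic genes that fell were Farsa, Tars3, Qars1, Dars, Gars and Eprs. Farsa, which encodes the alpha subunit of the phenylalanine enzyme, had 29.4, 28.0 and 28.7 FPKM in shNC and 16.4, 12.7 and 16.0 in shBmal1 (log2 fold change −1.05 ± 0.11; adjusted p = 5.8e-05, edgeR). Farsb, which encodes the beta subunit of the same enzyme, had 17.6, 18.1 and 19.0 FPKM in shNC and 22.1, 29.4 and 27.0 in shBmal1. The alpha transcript was thus the more abundant in every shNC library and the beta transcript in every shBmal1 library. The log2 ratio of Farsa to Farsb in CPM was 0.34 ± 0.07 in shNC and −1.11 ± 0.39 in shBmal1 (SD, n = 3), a difference of −1.46 ± 0.23 (SE). A two-sided exact permutation test returned p = 0.1, its minimum with 3 libraries in each group.

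Qars1, the glutamine enzyme, fell from 33.2 ± 1.02 to 24.8 ± 2.00 FPKM (log2 fold change −0.53) and Dars, the aspartate enzyme, from 26.3 ± 0.90 to 21.9 ± 0.87 FPKM (−0.37). The falls of Gars (−0.19) and Eprs (−0.18), the latter a fused enzyme for glutamate and proline, were small, and their FPKM overlapped between the groups. Both lost their calls with counts thinned to the smallest library (−0.11 and −0.08) and with the gene length trend removed (−0.15 and −0.05). They also lost them without shNC replicate 2 (adjusted p = 0.0678 and 0.0679, edgeR) or replicate 3 (0.073 and 0.0519). Tars3 fell by 1.16 on the log2 scale from a low level and missed the threshold once shNC replicate 2 was left out (−0.97, adjusted p = 0.0758, edgeR).

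Enzymes of the multisynthetase complex moved in both directions. Of the 8 cytosolic enzymes in it, Rars1, Kars, Lars1 and Mars1 rose, Qars1, Dars and Eprs fell and Iars1 did not pass. Their median log2 fold change was 0.09, against 0.45 for the 13 genes outside it, of which 8 rose and 3 fell; the difference was not tested. Over all genes tested, 36.0% were higher and 35.3% lower (28.3% and 46.6% with TPM + 1). With TPM + 1, Lars1 and Mars1 in the complex were not called (0.13 and −0.09) and Iars1 was called lower (−0.47). Outside it, Hars1 and Farsb were not called with TPM + 1, and Wars1 and Vars1 were called lower. Of the 3 scaffold genes, 2 rose. Aimp1 had 18.8, 19.9 and 17.2 FPKM in shNC and 56.0, 60.7 and 65.0 in shBmal1 (1.59 ± 0.10; adjusted p = 2.66e-06, edgeR), and Eef1e1 had 6.15, 6.45 and 6.86 in shNC and 17.6, 17.3 and 17.1 in shBmal1 (1.30 ± 0.09; adjusted p = 5.69e-06). Aimp2 had 24.4, 20.1 and 19.1 FPKM in shNC and 23.7, 23.4 and 24.3 in shBmal1 (log2 fold change 0.06), and its groups overlapped; with TPM + 1 it was called lower.

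Most mitochondrial enzymes fell. Cars2, the cysteine enzyme of mitochondria, had 3.75, 3.15 and 4.09 FPKM in shNC and 0.191, 0.537 and 0.289 in shBmal1. These rest on 331, 291 and 334 counts in shNC and on only 4, 12 and 7 in shBmal1. No shBmal1 library came near the shNC range, and 9.46% of the control level was left (log2 fold change −3.40 ± 0.36; adjusted p = 6.72e-05, edgeR). Cars2 went from rank 30 by FPKM in shNC to the last of 39 in shBmal1, while its cytosolic counterpart Cars rose. With TPM + 1 the change was −2.64.

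Aars2, the alanine enzyme, had 3.37, 2.88 and 2.95 FPKM in shNC and 0.503, 0.900 and 1.49 in shBmal1 (log2 fold change −1.75). Vars2, for valine, had 4.55, 3.90 and 4.42 FPKM in shNC and 1.82, 1.39 and 1.23 in shBmal1 (−1.65). The groups were separate for both genes, with a wide spread for Aars2 in shBmal1. Pars2 (proline, −1.54) and Lars2 (leucine, −1.46) fell to 34.3% and 36.2% of the control level. Iars2 and Tars2, the best measured of the set, fell less, from 12.8 ± 0.35 to 6.65 ± 0.52 FPKM (−1.06 ± 0.10) and from 11.2 ± 0.77 to 6.22 ± 0.17 FPKM (−0.96 ± 0.11).

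Ears2, the glutamate enzyme that also starts the making of mitochondrial glutamine transfer RNA, fell by 1.60 on the log2 scale, from 166 to 273 counts per shNC library to 7 to 24 per shBmal1 library. With shNC replicate 2 left out it missed the threshold (−1.44, adjusted p = 0.0695, edgeR). Fars2, for phenylalanine, was the weakest of the falls (−0.54, adjusted p = 0.0412, edgeR). It missed the threshold with DESeq2 (adjusted p = 0.0509), with thinned counts (0.135) and, in edgeR, when shNC replicate 1, shNC replicate 3, shBmal1 replicate 2 or shBmal1 replicate 3 was left out (0.112, 0.107, 0.0509 and 0.0755). Sars2 (−0.70), Yars2 (−0.29), Wars2 (−0.16), Nars2 (−0.08) and Hars2 (−0.02) did not pass, and Sars2 passed without shBmal1 replicate 3 (−1.12, adjusted p = 0.0247, edgeR). With TPM + 1 Sars2, Yars2, Wars2 and Hars2 were called lower.

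The arginine and methionine enzymes of mitochondria went the other way. Mars2 had 1.13, 0.956 and 0.869 FPKM in shNC and 4.35, 4.03 and 3.11 in shBmal1 (log2 fold change 1.83 ± 0.28; adjusted p = 0.000593, edgeR). Rars2 had 3.06, 4.04 and 3.05 FPKM in shNC and 8.37, 9.44 and 7.14 in shBmal1 (1.19 ± 0.19; adjusted p = 0.000739). Neither gene overlapped between the groups, and both were called higher under every alternative run. Rars2 shares 7544 bases with Slc35a1 on the opposite strand, whose log2 fold change was −0.38. Aarsd1, neither a cytosolic nor a mitochondrial synthetase, fell from 5.01 ± 0.16 to 3.21 ± 1.17 FPKM (−0.74) . Its call was lost when shNC replicate 1, shNC replicate 3 or shBmal1 replicate 2 was left out (adjusted p = 0.058, 0.0576 and 0.0558, edgeR).

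Whether the 2 enzymes for the same amino acid changed unequally was measured by their log2 ratio in CPM within each library. A factor applied to a whole library cancels in that ratio, while a correction that differs by gene, such as for gene length, does not. The 19 pairs shared some genes: Farsa and Farsb were each set against Fars2, Tars1 and Tars3 against Tars2, and Eprs against both Ears2 and Pars2. For 15 pairs the ratio of cytosolic to mitochondrial was higher in every shBmal1 library than in any shNC library. It was lower for 2 and overlapped for 2. For single genes, 77.3% of all tested had CPM that did not overlap between the groups, and no such share was computed for ratios of 2 genes. Cars to Cars2 moved most, from 3.90 ± 0.22 to 8.63 ± 0.53 (SD, n = 3), a difference of 4.73 ± 0.33 (SE). Aars to Aars2 differed by 3.13 ± 0.42, Tars1 to Tars2 by 2.54 ± 0.04, and Yars1 to Yars2 by 2.04 ± 0.13.

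Among the 15 pairs whose ratio was higher without overlap, the smallest differences were for Hars1 to Hars2 (0.47 ± 0.08) and Rars1 to Rars2 (0.79 ± 0.22). Hars1 and Hars2 lie head to head on chromosome 18, with 96 bases between their ends as the table lists them. The ratio was lower in shBmal1 for Mars1 to Mars2 (−1.55 ± 0.20) and Farsa to Fars2 (−0.51 ± 0.20). It overlapped for Wars1 to Wars2 (0.28 ± 0.23) and Tars3 to Tars2 (−0.18 ± 0.18). With 3 libraries against 3 the exact two-sided permutation test cannot go below p = 0.1, and adjusted over 20 ratios, Farsa to Farsb included, the smallest value was 0.111.

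**Figure D3:**
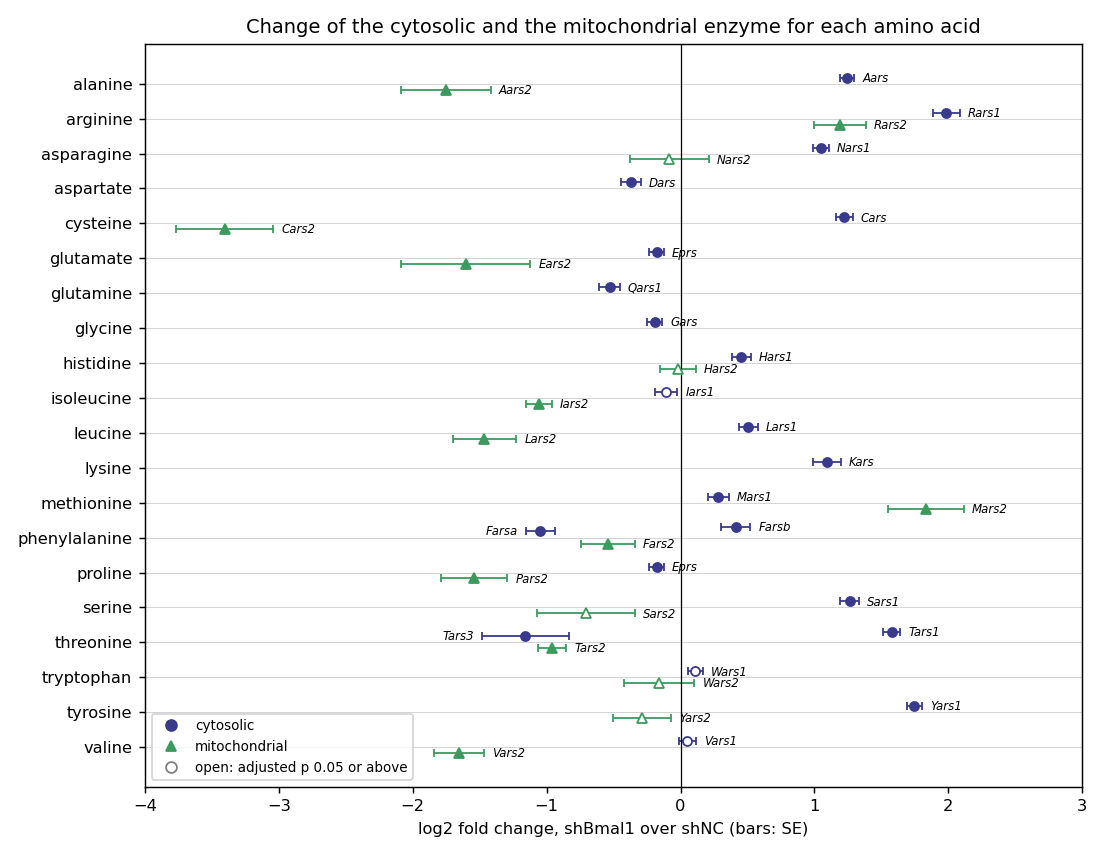
Log2 fold change (shBmal1 over shNC, edgeR; bars, SE) of the cytosolic (circles) and 16 of the 17 mitochondrial (triangles) genes by amino acid; filled symbols passed an adjusted p of 0.05 and Eprs is drawn for both glutamate and proline. The triangle lies left of the circle for most amino acids, with Mars2 to the right of Mars1, Farsa to the left of Fars2 and Tars3 to the left of Tars2.

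Promoter sequences were read from RefSeq (build GRCr8), from 250 bases before to 50 bases after the annotated start, and matched 35 of the 39 members by symbol. They were searched on both strands for TGATGNAA, the core of the C/EBP-ATF response element that ATF4 binds with a partner, and for the palindrome CACGTG, the E-box that BMAL1 binds with CLOCK. The motifs do not overlap each other in these windows. TGATGNAA was found in 7 of 18 cytosolic promoters, in none of 16 mitochondrial ones and in 3.98% of the 33469 promoters in the table. The 7 were Aars, Cars, Nars1, Tars1, Yars1 and Mars1, whose transcripts rose, and Iars1, which did not pass. The rise of Mars1 was small (0.28) and was not called with TPM. The windows around 6 of the matches are shown because most of these genes rose; they run 5′ to 3′ on the gene's strand with the motif, or its reverse complement, in capitals.
Cars: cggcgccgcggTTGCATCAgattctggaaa
Nars1: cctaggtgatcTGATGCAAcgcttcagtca
Tars1: ctggcgtcccgTTGCATCAgctggttagct
Yars1: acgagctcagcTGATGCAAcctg
Mars1: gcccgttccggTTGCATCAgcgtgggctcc
Iars1: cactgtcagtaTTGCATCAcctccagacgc

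All 6 windows carry the same 8 letters, TGATGCAA, in either orientation. In GRCr8 the windows lie at chr1:208225334-208225363 (Cars, reverse strand), chr18:60275778-60275807 (Nars1, reverse), chr2:62114811-62114840 (Tars1, reverse), chr5:146820190-146820212 (Yars1, forward), chr7:65023752-65023781 (Mars1, reverse) and chr17:15193658-15193687 (Iars1, reverse). The match begins 14, 27, 17 and 24 bases before the start in Nars1, Tars1, Mars1 and Iars1, and after the start in Cars and Yars1. Sars1 and Kars rose at least 2-fold with no match in the window. Rars1, Gars and Dars were among the 4 members not matched to a promoter.

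CACGTG was found in 5 of 18 cytosolic promoters (Aars, Tars1, Farsb, Vars1 and Iars1), in 1 of 16 mitochondrial ones (Ears2) and in 6.42% of all promoters. Of these genes Aars, Tars1 and Farsb rose (Farsb was not called with TPM), Ears2 fell, and Vars1 and Iars1 did not pass. The 250 bases before the start of Iars1 (chr17:15193653-15193902, reverse strand) are shown because both motifs, in capitals, lie there while the transcript had a log2 fold change of −0.11 that did not pass, or −0.47, called lower, with TPM + 1.
Iars1: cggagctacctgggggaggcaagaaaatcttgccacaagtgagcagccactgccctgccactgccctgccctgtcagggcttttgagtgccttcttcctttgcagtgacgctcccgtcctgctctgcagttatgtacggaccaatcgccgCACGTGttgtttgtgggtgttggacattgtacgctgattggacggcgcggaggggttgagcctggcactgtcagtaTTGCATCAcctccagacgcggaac

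Genes of the ATF4 amino acid response moved in both directions. Among the 24 tested, 14 rose and 8 fell while 2 missed the threshold, with a median log2 fold change of 0.34, and 9 were higher and 9 lower with TPM. The share called was 91.7%, against 71.3% of all genes (36.0% higher and 35.3% lower, or 28.3% and 46.6% with TPM + 1). Atf4 itself had 244, 250 and 251 FPKM in shNC and 295, 323 and 338 in shBmal1 (0.25 ± 0.06; adjusted p = 0.00679, edgeR). Several stress-induced members rose. Atf3 had 0.621, 0.524 and 0.636 FPKM in shNC and 28.3, 27.2 and 28.2 in shBmal1 (5.43), Sesn2, an inhibitor of mTORC1, rose by 2.22 on the log2 scale, Ddit3, which encodes CHOP, by 2.04, and Slc3a2, which encodes a subunit of amino acid transporters, by 1.30. Asns, which encodes asparagine synthetase, rose from 136 ± 4.60 to 190.4 ± 7.22 CPM (log2 fold change 0.49). TPM + 1 moved the median of all genes by −0.33, so small rises such as those of Atf4 and Asns may depend on scaling. The values of these genes with TPM are not given here. The members that fell included the mitochondrial enzymes Pycr1 (proline synthesis, −3.20) and Aldh1l2 (folate metabolism, −2.63), as well as Nupr1 (−2.46) and Vldlr (−1.91).

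Other genes of mitochondrial translation and tRNA maturation moved in both directions. Of 24 such genes in 25 rows (Gatc is listed in 2 rows), 9 rows were higher, 5 lower and 11 not called, and the median log2 fold change was 0.13. The share called was 56.0%, below the 71.3% of all genes. Gtpbp3, a tRNA-modifying enzyme gene, had 1.70, 2.63 and 1.83 FPKM in shNC and 26.2, 24.4 and 19.2 in shBmal1 (3.39 ± 0.21; adjusted p = 2.8e-06, edgeR). Trmt10c, which encodes a subunit of mitochondrial RNase P, rose by 2.65, Trit1, a tRNA-modifying enzyme gene, by 1.65 and Gfm1, the elongation factor gene, by 1.36. Among the lower ones, Mrrf, which encodes the ribosome recycling factor, fell by 1.01, and Mtfmt, which formylates the methionyl tRNA that Mars2 charges, fell from 8.87 ± 1.30 to 4.39 ± 1.08 CPM. Mtrf1, which encodes a release factor, fell by 1.54, Hsd17b10, another RNase P subunit gene, by 0.36 and Elac2, which encodes a tRNA 3′ end nuclease, by 0.31. The count of falls came to 3 without shNC replicate 2 and to 2 without shNC replicate 3.

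**Figure D4:**
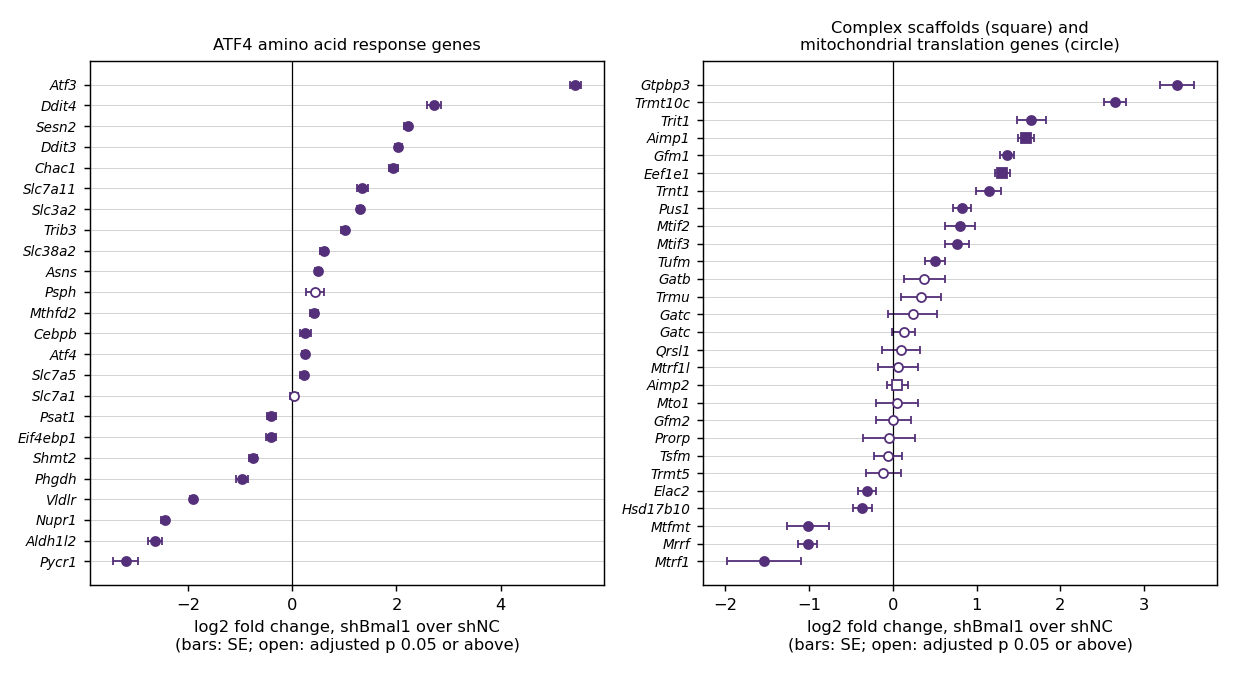
Log2 fold change (shBmal1 over shNC, edgeR; bars, SE) of the 24 ATF4 response genes (left) and of the complex scaffolds (squares) and mitochondrial translation genes (circles) on the right; open symbols did not pass an adjusted p of 0.05. Atf3 lies farthest right at 5.43 and Pycr1 farthest left at −3.20, and Gtpbp3 leads the right panel at 3.39.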

How the data were processed

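For every gene and library the deposited file gives raw counts of reads and FPKM, which the authors scaled for gene length and depth, per the file headers. Tools listed in the submitters' processing notes, without saying which step each served, were cutadapt 1.9, HISAT2 2.0.4, StringTie 1.3.4d, DESeq2 and edgeR. The sources used here give neither genome build nor counting program nor strand setting. Per the labels' protocols, RNA was selected for poly(A) and sequenced as paired ends.

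Groups came from the sample titles. Genes passing filterByExpr (minimum count 10, minimum total 15; 14342 of 32623) were TMM-scaled and compared with edgeR 4.0.16 (glmQLFit, glmQLFTest; R 4.3.3), with p adjusted over all genes tested. Alternatives were DESeq2 1.42.0, upper-quartile scaling, no filter, limma 3.58.1 on log2(TPM + 1) and log2(TPM + 0.1), thinning to 8773762 counts, a replicate block, leaving out each library, and, chosen after seeing the data, removal of the gene length trend (loess, span 0.5). In simulated counts, where 14142 of 14342 genes were unchanged, 0.0495% of the unchanged genes were called. Of genes with a true log2 change of 0.5, 1 and 2, 20.9%, 46.3% and 72.7% were called. Far more genes were called in these data (71.3%) than were changed in the simulation, so its rates need not hold for these data. Genes that did not pass may still have changed. A floor of 3 counts equals 0.0603 to 0.0681 CPM per shNC library and 0.257 to 0.342 CPM per shBmal1 library, for counting error only. Libraries of a group differed beyond sampling noise (chi-square over its degrees of freedom, 11.2 to 25.2).

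The members, their split by site and the other lists were chosen with earlier results of these data known. The rule named all members, Atf4, the scaffolds and, per list and direction, the 4 genes with the smallest p; some of these, and 1 promoter sequence, are not reported here, though counts and sums include them. Asns and Elac2 were chosen after their values were seen.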

Additional observations from a re-analysis of the deposited data

How the results depend on the processing

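The calls of the 8 cytosolic genes that rose at least 2-fold, of Mars2 and Rars2, of Farsa, Qars1 and Dars, and of 8 of the 10 mitochondrial falls (Ears2 and Fars2 excepted) held in all 14 alternatives. Same-numbered libraries did not deviate together (r = −0.0705, −0.00258 and 0.0203), so the numbers were not taken as pairs. With a replicate block 12 cytosolic genes were higher and 6 lower, 2 mitochondrial genes were higher and 9 lower, all genes came to 4663 higher and 4752 lower, and of the members Fars2 lost its call (adjusted p = 0.0787).

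With TPM (either pseudocount) 9 ATF4 genes and 3 elongation genes were higher, 1 scaffold was lower, Mars1 came to −0.0932 (TPM + 1) and −0.0939 (TPM + 0.1), Wars1 to −0.26 and Vars1 to −0.32, and 37.8% of all calls were higher with TPM + 1 against 50.5%. Vars1 was −0.0251 without the low-count filter, and Iars1 0.0182 with the length trend removed. Hars2 was 0.0429 with DESeq2, 0.0696 with thinned counts and 0.0826 with the length trend removed, and Wars2 0.10 with thinned counts. The cause of these shifts was not tested.

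Leaving out a library gave 3 to 6 falling cytosolic genes, 2 to 5 falling mitochondrial translation genes and 3 to 5 falling tRNA export and nuclear tRNA genes. Vars1 then ran from −0.0232 to 0.0694, Hars2 from −0.13 to 0.0322 and Nars2 from −0.46 to 0.0532. Few counts in shBmal1 limit the low mitochondrial genes: Cars2 rests on 4 to 12 counts there and Ears2 on 7 to 24.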

Other observations

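Further lists covered cytosolic elongation and the handling of tRNA in the nucleus, and their counts stand against 71.3% of all genes called, 36.0% higher and 35.3% lower. Of 7 elongation genes, 5 rose, 1 fell and 1 did not pass, with a median log2 fold change of 0.40 (edgeR), and 3 were higher with TPM. Eif5a, the hypusine-bearing translation factor gene, rose by 1.63, and Eef1b2 by 0.93, Eef1g by 0.78 and Eef2 by 0.40, while Eef2k, which encodes the kinase that inhibits eEF2, fell by 1.18.

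Of 10 genes of tRNA export, splicing and nuclear modification, 5 rose and 5 fell, an even split like that of all genes, with a median log2 fold change of −0.12. Nsun2, which encodes a tRNA cytosine methyltransferase, rose by 2.27, Clp1, an RNA kinase gene, by 2.90, Rtcb, the tRNA ligase gene, by 1.13 and Tsen54, a subunit gene of the tRNA splicing endonuclease, by 1.22. Tsen34, which encodes another subunit of that endonuclease, fell by 1.54, Trpt1, a tRNA phosphotransferase gene, by 1.10, and Xpot, which encodes exportin-t, by 0.91. Subunit genes of a single endonuclease were thus called in opposite directions. The count of falls came to 3 without shNC replicate 2 or shNC replicate 3.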
